A study of Mus musculus with 4 samples.

Results

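The genes of lipogenesis and fatty acid elongation were followed in liver RNA of mice given aristolochic acid I (AAI), a kidney toxin of Aristolochia plants. The group holds 10 genes, Fasn, Acaca, Acacb, Scd1, Elovl3, Elovl5, Elovl6, Me1, Thrsp and Srebf1, and consists of all 23 non-control probes that carry one of these gene names, of 56605 probes for 37021 gene names on the array. Each of the 10 genes was well above background on all 4 arrays with its brightest probe. The mice were C57BL/6 wild-type animals, 6 weeks old by the labels, while the study's methods give a range that starts at this age. Females received AAI in corn oil at 5 mg/kg/day and males at 2 mg/kg/day, by i.p. injection on 5 days a week over 3 weeks, and the control mice of each sex received corn oil alone (the corn oil or control pools below). RNA of 5 livers was pooled in equal amounts for each group and hybridized to 1 array. The dose differed between the sexes, so that sex and dose cannot be told apart in the AAI-treated pools. A single array per group gives no estimate of the error between mice, so that no test was made and every value below has n = 1.

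De novo lipogenesis turns carbohydrate into fatty acids. Cytosolic acetyl-CoA is carboxylated to malonyl-CoA by the acetyl-CoA carboxylases, and fatty acid synthase uses malonyl-CoA and NADPH to build palmitate, which desaturases and elongases then turn into longer and unsaturated fatty acids. In liver this program is switched on by insulin and feeding, largely through the transcription factors SREBP-1c, encoded by Srebf1, and ChREBP, encoded by Mlxipl.

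The brightest probe of each gene stood for it, and probes of 6 members that the results turn on are shown so that each value can be traced to its target. The first 30 of the 60 bases are given, 5′ to 3′. On mouse build mm9 the complete probes lie at chr11:60013214-60013273 on the minus strand for Srebf1 (NM_011480), chr11:84215093-84215152 on the plus strand for Acaca (NM_133360), chr11:120668460-120668519 on the minus strand for Fasn (NM_007988), chr7:104561649-104561708 on the minus strand for Thrsp (NM_009381), chr19:46209325-46209384 on the plus strand for Elovl3 (NM_007703) and chr9:77832205-77832264 on the plus strand for Elovl5 (NM_134255). Which exon each probe lies in was not analysed here.
Srebf1: ggcaccttagtggcttttccctagctgagg
Acaca: gcttcagtccaatgcactcttctcacgttt
Fasn: gcttgggttttgacttttctgcagctgtca
Thrsp: aaagcagggatgctgtatctacctcacacg
Elovl3: cctccgtggcactaagggtatgggagaatg
Elovl5: ctcaatacaaaaattataacatttgatagt

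Upstream sequence was taken from RefSeq (GRCm38.p6), which matched 8 of the 10 genes with 11 promoters in all. The 250 bases before each start were searched on both strands for 4 motifs: the sterol regulatory element TCACNCCAC bound by SREBP, the E-box CACGTG, the CCAAT box bound by NF-Y, which reads ATTGG on the other strand, and the GC box GGGCGG bound by Sp1. No member promoter held the sterol element in this spelling, which 1.05% of 32851 promoters hold. CCAAT was found in 7 promoters of 6 genes, against 33.8% of all promoters, and GGGCGG in 3 promoters of 2 genes, Me1 and Srebf1, against 32.7%. The E-box stood in 1 promoter, that of Elovl5, and in 6.02% of all. A match is a run of letters and not a measured site. The windows of Fasn and Thrsp, both higher in AAI-treated males, and of Elovl5, which was lower there by its brightest probe, are shown with the E-box and the CCAAT boxes of either strand in capitals. They span chr11:120824548-120824797 on the minus strand, chr7:97417551-97417800 on the minus strand and chr9:77917115-77917364 on the plus strand. In Fasn a CCAAT from base -62 to -58 overlaps one on the other strand from -59 to -55.
Fasn: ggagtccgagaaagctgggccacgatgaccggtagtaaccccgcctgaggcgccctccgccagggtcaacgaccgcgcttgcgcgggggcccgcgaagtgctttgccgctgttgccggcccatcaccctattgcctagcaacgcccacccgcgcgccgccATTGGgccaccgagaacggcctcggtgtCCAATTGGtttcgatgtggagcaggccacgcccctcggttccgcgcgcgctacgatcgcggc
Thrsp: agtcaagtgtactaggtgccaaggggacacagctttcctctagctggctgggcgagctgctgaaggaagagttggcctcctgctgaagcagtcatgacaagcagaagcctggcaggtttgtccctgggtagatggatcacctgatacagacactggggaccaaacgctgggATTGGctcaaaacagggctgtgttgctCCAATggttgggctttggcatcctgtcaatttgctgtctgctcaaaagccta
Elovl5: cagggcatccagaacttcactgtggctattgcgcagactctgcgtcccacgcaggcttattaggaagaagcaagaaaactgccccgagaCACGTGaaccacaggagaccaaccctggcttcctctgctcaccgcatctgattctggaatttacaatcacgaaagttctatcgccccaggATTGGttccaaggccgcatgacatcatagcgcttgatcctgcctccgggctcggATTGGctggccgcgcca

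Signals are given as log2 values after quantile normalization over the 4 arrays, and a ratio is the AAI pool minus the control pool of the same sex on this scale. Levels were compared within a probe, except in the summed marker signals below, which add probes of different genes. As a technical yardstick served how far apart the ratios of several probes of the same gene lay: the median of their SD was 0.25 on the log2 scale in females (9128 genes), 0.24 in males (8618 genes) and 0.23 for control males over control females (8893 genes). It measures probes and not the spread between mice. A gene was counted as changed at 2-fold, the fold threshold of the study's methods, and the p-value that those methods also required could not be computed from 1 array per group. Hepatocyte genes were abundant in every pool: the summed linear signal of 10 markers was 2734000 in control females against 2788000 after AAI, and 2584000 against 2638000 in males, and none of the 10 differed 2-fold. Quantile normalization gives the highest ranks the same values on every array, so sums of such bright genes can hardly differ. These sums do not measure hepatocyte content. Markers of other tissues differed, above all in males. Over all tested genes, 1.37% were at least 2-fold higher and 3.09% lower in females, and 3.51% and 4.59% in males. All 10 skeletal muscle markers were at least 2-fold higher after AAI in both sexes, with summed signals from 1345 to 44990 in females and from 5951 to 354800 in males. Of 10 white fat markers, 3 were higher in AAI-treated females, and 6 were higher and 2 lower in AAI-treated males (summed signals from 32290 to 35750 and from 62810 to 96260). Car3, a carbonic anhydrase that is abundant in fat and also in liver, was 1 of the 2 lower markers in males and carried most of the control sum, with 15.69 and 13.78 in control and AAI-treated males. Without Car3, the other 9 markers summed to 6023 and 7464 in females, and to 9954 and 82230 in males. Car3 was part of the list as fixed and was left out here with its values known. Of 8 brown fat markers, 1 of 6 measured was higher in females and 5 of 7 measured in males (4236 to 7916 and 3226 to 71230). Ucp1, the uncoupling protein of brown fat, was not well above background in either female pool and read 4.98 and 12.89 in control and AAI-treated males, whereas Zic1 was not well above background on any array. Adipoq, the fat hormone adiponectin, read 7.72 and 11.34 in males, whereas Lep and Plin1 of the white fat list had ratios of -0.06 and -0.72. Of 6 adrenal cortex markers, 5 were higher and 1 lower in AAI-treated males and none changed 2-fold in females. Of 5 adrenal medulla markers 3 were higher in AAI-treated males, no kidney marker changed 2-fold in either sex, and of 5 red cell markers 4 were lower in AAI-treated males. Of 6 macrophage markers, 4 were lower in AAI-treated females and 1 in males. Fat tissue makes fatty acids with the same enzymes as liver, and the part of these other-tissue signals in the male and female ratios below was not tested. In pooled tissue RNA, fewer cells of a type and less RNA per cell cannot be told apart.

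In AAI-treated females no lipogenesis gene differed 2-fold from corn oil, where 3.09% of 31682 tested genes were lower and 1.37% higher by this threshold. Srebf1 and Acaca were 1.71-fold and 1.54-fold higher, and Elovl3 was 1.75-fold lower. In AAI-treated males 1 gene, Thrsp, was higher (3.51% of 30539 tested genes) and 1 gene, Elovl3, was lower (4.59%). The median ratio of the 10 genes was 0.06 in females, beside 0.04 over all tested genes, and 0.30 in males, beside 0.003. Counted by the SD between probes, 3 members were higher, 1 was lower and 6 lay within it in females, where 29.3% of all tested genes were higher and 24.7% lower by that measure. In males 6 were higher, 2 were lower and 2 lay within it, where 28.4% of all were higher and 27.2% lower.

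**Figure D1:**
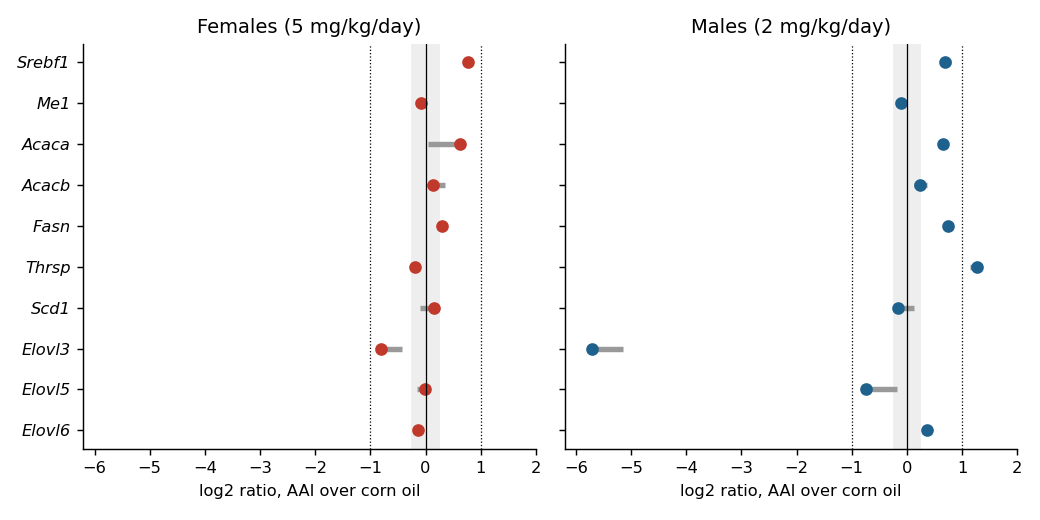
Log2 ratio of AAI over control pools for the 10 genes, in females and males (1 array per group). Points are the brightest probes, grey bars span the 8 alternative ways of processing, the grey band is the median SD between probes of 1 gene, and dotted lines mark 2-fold. In males Elovl3 stands at -5.71 and Thrsp at 1.27, and the other 8 genes lie between -0.75 and 0.74.

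Srebf1 encodes SREBP-1, the transcription factor that turns on most of the lipogenic enzymes. Its probe read 13.26 in control and 14.03 in AAI-treated females, and 12.70 and 13.40 in control and AAI-treated males. Both AAI pools were above the control pool of their own sex, and both male pools were below the female pool given the same agent. The ratio was 0.77 in females, rank 862 from the highest of 29714 genes above background on both arrays, and 0.70 in males, rank 1799 of 28433. It lay between 0.74 and 0.79 in females and between 0.70 and 0.79 in males over the 8 alternatives. Whether the probe tells the 1a and 1c transcripts apart was not analysed here.

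Of 24 other regulators fixed as a list, none changed 2-fold in either sex by its brightest probe, with medians of -0.17 in females and -0.14 in males. Srebf2 had ratios of 0.36 in females and -0.01 in males by its brightest probe, but -1.03 and 0.32 by its other probe. Mlxipl, the carbohydrate-responsive factor, had ratios of -0.56 and -0.38 by its brightest probe, but 0.25 and 0.18 in males by the others, which gave -0.04 and -0.18 in females. Insig2, which holds the SREBP precursor in the endoplasmic reticulum, had the same ratio of -0.67 in both sexes, whereas its paralog Insig1, itself a target of SREBP, had 0.21 and 0.39. Mid1ip1, the paralog of Thrsp, had 0.55 in females and 0.88 in males.

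Me1, cytosolic malic enzyme, supplies NADPH for fatty acid synthesis. It read 12.24 in control and 12.16 in AAI-treated females, and 12.85 and 12.74 in males. The ratios of -0.09 and -0.11 lay within the SD between probes, and a further probe gave 0.06 and -0.20. Both male pools were above both female pools by the brightest probe. By the other probe the sexes overlapped, since females read 12.02 and 12.08 and males 12.24 and 12.04.

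Around Me1, 14 genes of acetyl-CoA, NADPH and glycolytic supply had medians of 0.17 in both sexes. By the brightest probes, 3 genes were at least 2-fold higher in females and 2 in males (1.37% and 3.51% of all tested genes). None was lower (3.09% and 4.59%). Pgd had 0.45 in males by its brightest probe, but 0.36 and -1.10 by its others. Tkt had 0.28 in females by its brightest probe, with 0.29 and a bound of at most -1.45 by its others. Acss2, which makes acetyl-CoA from acetate and is a target of SREBP, passed 2-fold in both sexes. It read 12.43 and 13.46 in control and AAI-treated females and 11.77 and 12.92 in males, ratios of 1.02 and 1.15, and its next probe gave 1.17 and 1.03, while a dimmer probe that was above background on both female arrays gave -0.70 there. Slc25a1, the mitochondrial citrate carrier, had a ratio of 1.03 in females, with 0.97 by its other probe, and of 0.22 in males. Me3, a mitochondrial malic enzyme, had 1.25 in females and 4.02 in males by its brightest probe. The other Me3 probes did not show a rise of that size, with 0.87 and 0.47 in females and 0.09 in males by the probe measured in both male pools. Acly, ATP citrate lyase, had 0.10 and -0.45, with 0.05 and -0.05 by its other probe, and Pklr, liver pyruvate kinase, had 0.13 and 0.08.

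Acaca and Acacb encode the acetyl-CoA carboxylases. The product of the Acaca enzyme feeds fatty acid synthesis in the cytosol, whereas Acacb acts at the mitochondrial surface, where malonyl-CoA restrains fatty acid oxidation. Acaca read 10.90 in control and 11.53 in AAI-treated females and 10.61 and 11.27 in males, ratios of 0.63 and 0.66. Both AAI pools stood above both control pools. It had 7 probes, 4 of them above background on all arrays. These 4 gave between 0.49 and 0.80 in males, with an SD of 0.13, but between 0.03 and 0.63 in females, with an SD of 0.295. The 2 brightest gave 0.63 and 0.52 in females, and the dimmer ones 0.11 and 0.03. A probe for the transcript ENSMUST00000184534 was above background in control females only and was at least 2.13-fold lower after AAI. The female Acaca ratio was 0.04 when all its probes above background on either female array were averaged.

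Acacb (NM_133904) read 11.52 and 11.67 in control and AAI-treated females and 11.18 and 11.42 in males. The ratio of 0.14 in females was within the SD between probes, and that of 0.24 in males was at its edge. Its 3 probes disagreed beyond this SD, giving 0.14, 0.23 and 0.67 for females but 0.24, 0.79 and 0.05 for males, all above 0.

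**Figure D2:**
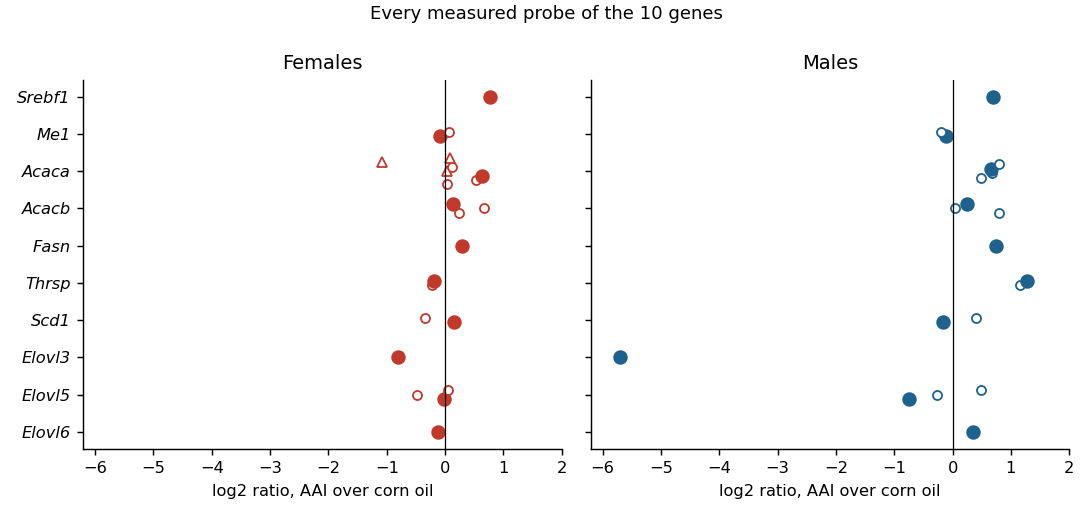
Log2 ratio of AAI over control pools for each measured probe of the 10 genes. Filled points are the brightest probe of a gene, open points its other probes, and triangles are bounds for probes above background in only 1 of the 2 pools. The Thrsp probes lie together at -0.19 and -0.22 in females and at 1.27 and 1.16 in males, while the Elovl5 probes in males span from -0.75 to 0.49.

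Fasn, fatty acid synthase, is the enzyme that assembles palmitate. Its single probe read 13.91 in control and 14.20 in AAI-treated females, and 13.38 and 14.13 in males. The control males were the lowest pool, and the AAI-treated males lay between the female pools. The ratio was 0.30 in females, rank 7444 from the highest, just beyond the SD between probes. The male ratio was 0.74, a 1.67-fold difference and rank 1577, and it lay between 0.74 and 0.83 over the alternatives.

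Thrsp, also called Spot 14, is a small nuclear and cytosolic protein of lipogenic tissues that responds to thyroid hormone and carbohydrate. It read 14.31 in control and 14.12 in AAI-treated females, and 13.07 and 14.35 in control and AAI-treated males. Control males stood apart as the lowest pool, and the other 3 pools lay within 0.23 of each other. Its ratio of -0.19 in females was within the SD between probes. The male signal was 2.42-fold higher after AAI, a ratio of 1.27 and rank 511 from the highest, between 1.15 and 1.36 over the alternatives. The second probe, with 13.52, 13.29, 12.30 and 13.46 in the same order of pools, gave -0.22 and 1.16. The difference between the male and the female ratio, 1.46, was not tested.

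**Figure D3:**
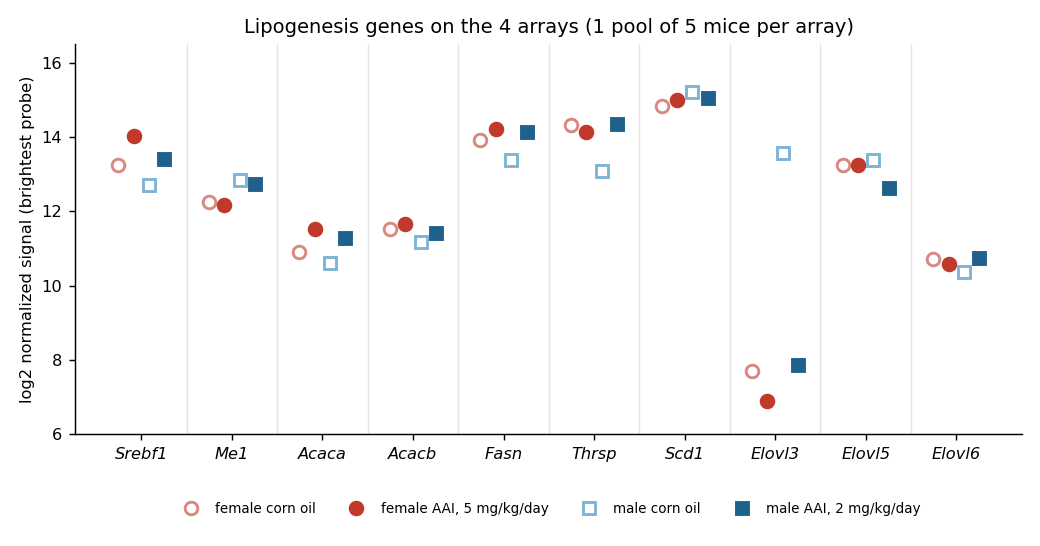
Log2 normalized signal of the brightest probe of each gene on the 4 arrays, each a pool of 5 mice. Levels can be compared within a gene but not between genes. Elovl3 reads 13.58 in control males and between 6.89 and 7.87 in the other pools, and Thrsp reads 13.07 in control males and between 14.12 and 14.35 in the others.

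Scd1, stearoyl-CoA desaturase 1, introduces the double bond that makes oleate and palmitoleate. It read 14.84 and 14.99 in control and AAI-treated females and 15.20 and 15.04 in males (NM_009127). The 4 pools lay within 0.36 of each other, and the ratios of 0.15 and -0.16 were within the SD between probes. Their direction was not stable: the ratio in males was 0.05 when arrays were scaled to the 75th percentile and 0.12 when both probes were averaged, and the latter gave -0.09 in females. The other probe, annotated on the opposite strand to the first, gave -0.34 and 0.40.

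Elovl3, Elovl5 and Elovl6 are fatty acid elongases, which carry out the condensation that adds carbons to an acyl-CoA. Elovl6 extends palmitate, Elovl5 acts on polyunsaturated and some monounsaturated fatty acids, and Elovl3 on saturated and monounsaturated chains; Elovl3 is also known from brown fat and skin and is higher in male than in female mouse liver.

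Elovl3 had the widest range of the 10 genes, 6.69 between its highest and lowest pool. It read 7.69 in control and 6.89 in AAI-treated females, and 13.58 and 7.87 in control and AAI-treated males. In processed intensity these were 192, 128, 12416 and 224, so that control males stood apart and the AAI-treated males read close to the female controls. In males it was 52.3-fold lower after AAI, a ratio of -5.71 and rank 3 from the lowest of 28433 genes, and between -5.79 and -5.14 over the alternatives. In females it was 1.75-fold lower, rank 1448 from the lowest. These values rest on 1 probe. The brown fat markers Ucp1 and Cidea, given above and below, were higher in the same male pool in which Elovl3 was low, and their part in its value was not tested.

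Elovl5 read 13.25 and 13.24 in control and AAI-treated females and 13.37 and 12.62 in males. The AAI-treated males were the lowest pool and the others lay between 13.24 and 13.37. The ratio was -0.01 in females and -0.75 in males, 1.68-fold lower and rank 1996 from the lowest. The 3 probes did not agree in males: the dimmer ones gave -0.26 and 0.49, and the mean of all 3 gave -0.17. In females they gave -0.01, -0.49 and 0.05.

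Elovl6 (NM_130450) read 10.71 and 10.58 in control and AAI-treated females and 10.37 and 10.73 in males. Its single probe gave a ratio of -0.13, within the SD between probes, in females, and of 0.36, a 1.28-fold difference, in males. Control males were again the lowest pool.

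Of 17 other desaturase, elongase and elongation cycle genes on the array, 16 were measured in females, with a median of -0.14. None of these changed 2-fold in females by its brightest probe. In males 15 were measured, with a median of -0.09. In females Hacd1 had -0.60 by its brightest probe and -0.80 and -1.40 by its others. Hacd4 had -0.76 in females by its brightest probe and -1.39 and -0.32 by its others. Elovl2, an elongase of long polyunsaturated fatty acids, was lower in males. Its control and AAI pools read 13.05 and 12.78 for females, then 13.93 and 12.66 for males, ratios of -0.27 and -1.27. Scd2, a desaturase of brain and fat, was higher in males, where it read 8.29 and 9.75 against 8.57 and 8.36 for females, ratios of -0.21 and 1.46. Fads1 and Fads2, the Δ5 and Δ6 desaturases, did not change 2-fold, Fads1 having ratios of 0.29 in females and 0.38 in males, and Fads2 -0.61 and -0.09. Their other probes gave less or differed in sign in females, with 0.06 and -0.11 for Fads1 and between -0.31 and 0.03 for Fads2. In males they gave 0.20 and 0.68 for Fads1 and between -0.05 and 0.20 for Fads2.

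The control pools were compared to ask how the genes stood in each sex without AAI. Males were 59.0-fold higher than females in Elovl3, a log2 difference of 5.88 and rank 4 from the highest of 29111 genes. They were 2.36-fold lower in Thrsp, a difference of -1.24 and rank 219 from the lowest. These were the only members past 2-fold, where 3.83% of 30891 tested genes were higher and 1.86% lower. Counted by the SD between probes, 6 members were lower in males, Srebf1, Acaca, Acacb, Fasn, Thrsp and Elovl6, and 3 were higher, Scd1, Elovl3 and Me1 (28.6% and 25.8% of all tested genes). The male corn oil array enters both this comparison and the male AAI ratio, so that the values of both are not independent. Thrsp was -1.24 here and 1.27 after AAI in males, Elovl3 5.88 and -5.71, Fasn -0.52 and 0.74, and Srebf1 -0.56 and 0.70. Set against the female corn oil pool, AAI-treated males differed by 0.04 in Thrsp, 0.17 in Elovl3, 0.22 in Fasn and 0.14 in Srebf1. Elovl5 and Me1 lay farthest from it, at -0.63 and 0.50.

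**Figure D4:**
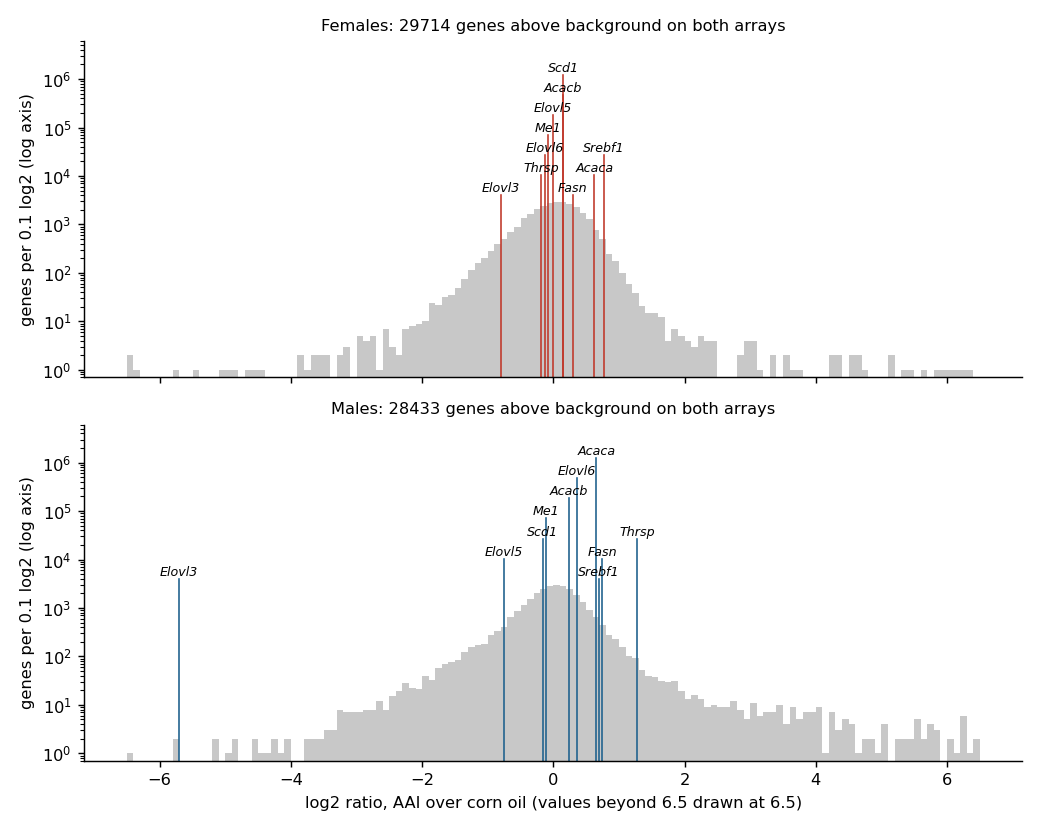
Histograms of the log2 ratio of AAI over control pools over all genes above background on both arrays, for females and males, with a logarithmic count axis and the 10 genes as lines whose heights carry no value. In females all 10 lie between -0.80 and 0.77, and in males Elovl3 lies at the far low end.

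Genes with the pattern most like that of Elovl3 or Fasn were found by the Euclidean distance between the 4 log2 signals, each gene centred on its mean, over 28233 genes above background on all arrays. Nearest to Elovl3 were Cyp4a12b (distance 1.03), an interval of non-coding RNA without a gene name (1.29), Klhdc8b (1.35), Cyp4a12a (1.44) and Clec2h (1.62). Cyp4a12a and Cyp4a12b encode near-identical fatty acid hydroxylases of male mouse liver, so that the value of each is uncertain. Cyp4a12b read 8.21 and 8.05 in control and AAI-treated females and 13.92 and 9.49 in males. Nearest to Fasn were LOC102641619 (0.0134), Gm3161 (0.0308), Zfp746 (0.0310), Asic2 (0.0311) and Nrn1 (0.0359). With 4 arrays these distances describe the pools alone.

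Downstream of the 10 genes, 19 genes of acyl-CoA and triglyceride synthesis had medians of -0.28 in females and -0.21 in males. By the brightest probes none changed 2-fold in females, and 3 were lower in males, beside 4.59% of all tested genes. Acsl1, the main acyl-CoA synthetase of liver, read 15.03 and 14.75 in females and 16.06 and 14.70 in males, ratios of -0.28 and -1.36. Its next probe gave -0.24 and -1.73. A dim one gave 0.06 in females and a bound of at least 0.41 in males, where it was above background after AAI only. Mogat2, a monoacylglycerol acyltransferase, had -0.47 and -1.69, with -0.81 and -1.99 by its other probe. Agpat1, which acylates lysophosphatidic acid, had -0.43 and -1.96, but its other probe gave 0.43 in males. Dgat2, the final enzyme of triglyceride synthesis, had -0.55 and 0.11. Acsl5 had -0.24 in males by its brightest probe, but -1.18 by another. Lpin1 had 0.71 in males by its brightest probe, with 1.08, 0.41 and 0.30 by its others.

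Of 17 lipid droplet proteins and lipases, none changed 2-fold in females by its brightest probe (median 0.19). In males 3 were higher and 1 lower (median 0.03), beside 3.51% and 4.59% of all tested genes. The 3 higher ones were Cidea, Cidec and Plin4, droplet proteins that are abundant in fat, and Cidea is also in the brown fat list. Cidea read 5.37 and 6.32 in control and AAI-treated females and 6.71 and 12.25 in males. Cidec read 7.82, 8.08, 9.90 and 12.38 in the same order and Plin4 9.07, 9.17, 8.99 and 10.92. Lipe, hormone-sensitive lipase, which is also in the white fat list, had ratios of 0.26 and -1.30, with -0.39 and 0.15 by another probe. A further Lipe probe was above background in control males alone and had a ratio of at most -2.72 in males. Plin2, the droplet coat protein of hepatocytes, had -0.47 in females and -0.97 in males, with -0.15 and -0.27 by its other probe. Cidea, Cidec and Plin4 were higher in the male pool in which the fat markers were higher, and the part of fat RNA in their values was not tested.

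**Figure D5:**
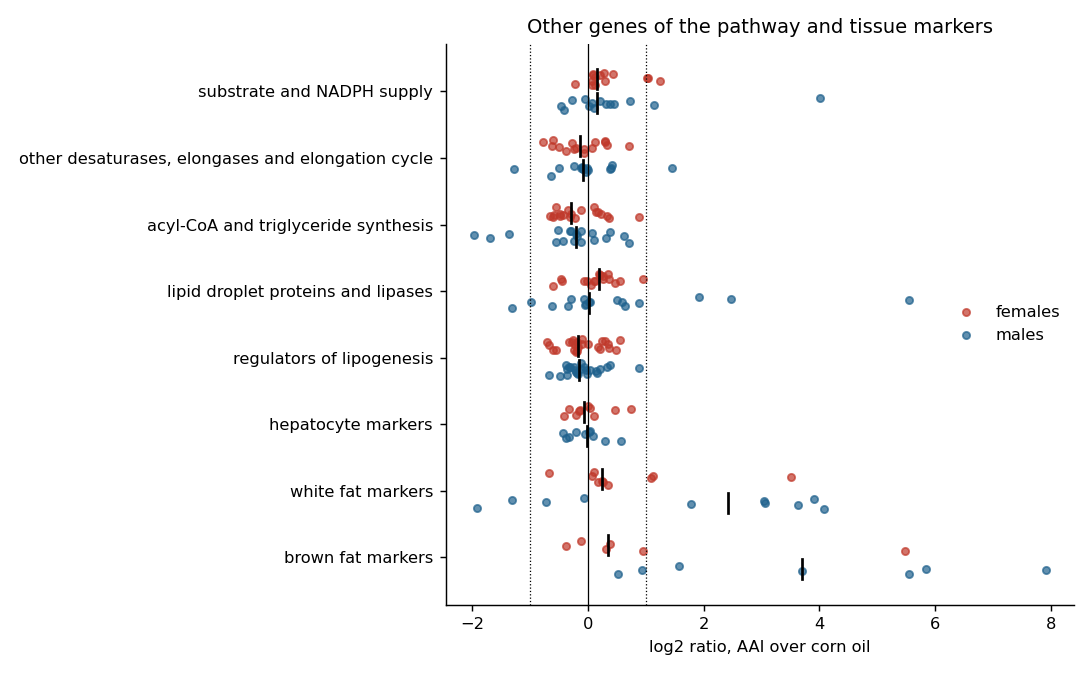
Log2 ratio of AAI over control pools for other genes of the pathway and for markers of hepatocytes and fat, 1 point per gene with bounds drawn at their value, red for females and blue for males. Black bars are list medians and dotted lines mark 2-fold. The male medians are 2.41 for white fat and 3.70 for brown fat markers, beside -0.01 for hepatocyte markers.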

How the data were processed

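Total RNA from mouse liver was pooled over 5 mice per group, Cy3-labeled and put on a single array each, all on 1 slide (SurePrint G3 mouse gene expression). The authors read the scans in Feature Extraction 10.5.1.1. They deposited the intensity of each spot, among others as the processed signal (after background subtraction and, on 3 of the 4 arrays, a trend correction). A deposited table of the series holds the intensity after the authors' quantile normalization, used here as an alternative. Samples were grouped by the labels.

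From the processed signal, control and outlier spots (70 to 234 of 59305 per array) were left out, the spots of a probe were averaged and log2 values were quantile normalized over 56495 probes (numpy 2.4.6, pandas 2.3.3; normexp with limma 3.58.1 in R 4.3.3). The brightest probe stood for a gene. A 2-fold difference was counted if either of both arrays had the probe well above background, and where only one had, the ratio was taken as a bound. Gene names were taken from an array file in which none reads as a date. Between 75.85% and 82.29% of spots were well above background, and no spot was saturated. The number of arrays limits the precision. Median SDs of probes spotted at least 8 times were 0.0451 to 0.0845. The steps were tested on simulated data.

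Every member was named, and from each pathway list each gene changed 2-fold in either sex (at most 5), with a few others chosen after their values were seen. The members and lists were chosen with earlier results of these data known. Promoter windows are from RefSeq (GRCm38.p6), and probe coordinates are those of the array files (mm9). Alternatives were scaling to the 75th percentile, normexp with an offset of 50, no trend correction, the authors' normalized intensity, the mean of a gene's probes, no or a stricter filter on dim probes, and 1.5-fold and 3-fold thresholds. Some spots had a processed signal within 1% of the background value although their background-subtracted signal was far higher. They were 26 and 92 spots on 2 arrays, none of a member or listed gene. Leaving them out was chosen after seeing the data.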

Additional observations from a re-analysis of the deposited data

How the results depend on the processing

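With 1.5-fold in place of 2-fold, 1 member was lower and 2 were higher in females, beside 3150 and 2474 of 31682 tested genes. In males 2 were lower and 4 higher, beside 3361 and 3024 of 30539. Control males were lower than control females in 1 member and higher in 2, beside 2454 and 3086 of 30891. With 3-fold, 0 members were higher in males (471 of 30539 tested genes). Likewise 0 were lower in control males than in control females (155 of 30891). No other alternative moved these counts. The median member ratio was between -0.05 and 0.06 in females, changing sign with the mean of probes and, at -0.0004, with the 75th percentile, and between 0.24 and 0.36 in males. Of 80 values under the 8 alternatives in each sex, 2 in females and 3 in males moved by more than the SD between probes. They were Elovl3 with normexp, at -0.43 in females and -5.14 in males, and, with the mean of probes, Acaca at 0.04 in females and Scd1 at 0.12 and Elovl5 at -0.17 in males. Neither change of the filter on dim probes could move a member, since its brightest probe was above background on all arrays. Leaving out the spots with a processed signal at the background value but a far higher background-subtracted signal removed no member probe. The mean of probes could not move a gene with a single probe, so the 80 values are not separate checks. Over all genes, 978 were lower and 434 higher in females; scaling to the 75th percentile gave 745 and 623, and normexp 343 and 139. In males, 1402 and 1071 became 644 and 554 with normexp. With normexp, control males against females gave 225 lower and 475 higher, instead of 574 and 1183. With no filter on dim probes the counts were 1433 and 1078 in females, 2239 and 1792 in males, and 1253 and 1823 between the sexes. With 3-fold they were 225 and 127, 511 and 471, and 155 and 378, and with 1.5-fold 3150 and 2474, 3361 and 3024, and 2454 and 3086. The causes were not tested. No paired analysis was possible because each group is 1 array, which also leaves no replicate to omit. Signal over background limited the 3 dim Acaca probes to bounds or to no ratio.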
